A study of Mus musculus with 18 samples.

Results

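The collagen and laminin chain genes were examined in single-cell transcriptomes of mouse embryos at E8.5. Members were all genes whose symbol is Col, a number, a and a number (44 collagen chains) or Lama, Lamb or Lamc and a number (11 laminin chains), which made 55 of the 31053 mouse genes counted. The embryos came from heterozygous matings on the 129S4/SvJae background and comprised 7 WT embryos, 3 embryos null for Dnmt1 (Dnmt1 KO 1, 2 and 3), 4 null for Dnmt3a (Dnmt3a KO 1, 2, 13 and 14) and 4 labelled as null for Dnmt3b (Dnmt3b KO 1, 2, 11 and 12). Per the labels each was dissociated alone and made into a 10x Genomics library in which UMIs (molecules tagged near the 3′ end) were counted. Dnmt1 encodes the maintenance DNA methyltransferase, and Dnmt3a and Dnmt3b the de novo enzymes. The nulls are germline alleles, so every tissue of an embryo, the extraembryonic ones included, carries the same genotype.

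Collagen chains fold in threes into a triple helix. Fibrillar collagens then assemble into cables that bear tension in connective tissue, type IV collagens into the sheet of the basement membrane, and type VI collagens into beaded filaments, while the FACIT collagens sit on the surface of fibrils. Laminins are cross-shaped trimers of an alpha, a beta and a gamma chain that start basement membranes, and the embryo lays these down early under its epithelia, in the yolk sac and around the heart and vessels.

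UMIs were summed over all barcodes with at least 1500 mouse UMIs (128881 barcodes), and levels are given as CPM (the gene's UMIs per 1000000 UMIs of the library), which were not divided by gene length because a molecule is counted once, near its 3′ end. Library totals were 38742721 to 253139975 UMIs in WT and 88335409 to 138615554 in Dnmt1 KO, and the members took 25315 to 174668 UMIs per library, or 0.0398% to 0.0674%. Dnmt1 was at 14.9 to 15.6 CPM in Dnmt1 KO against 83.7 to 114 in WT, and Dnmt3a at 7.59 to 11.8 in Dnmt3a KO against 23.5 to 34.5 in WT. Dnmt3b was not lower in the libraries labelled Dnmt3b KO (54.4 to 68.3 against 35.9 to 87.1), where 3′ counts check the label only if the deletion removes the counted part, and Dnmt3a was at 7.65 CPM in the library labelled Dnmt3b KO 12 and 15.1 in the library labelled Dnmt3b KO 11. The libraries labelled Dnmt3b KO 1 and 2 shared 9149 of these barcodes and were counted as 1 sample, so n was 3 in that group. By a Y-linked count, 1 of 7 WT, 3 of 3 Dnmt1 KO and 4 of 4 Dnmt3a KO libraries and 3 of 4 labelled Dnmt3b KO were male.

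In WT embryos the basement membrane chains led. Col4a1, a chain of the ubiquitous type IV network, was at 116 ± 28.9 CPM (SD, n = 7), its partner Col4a2 at 47.7 ± 10.9, and together they made 32.1% of the members' CPM. Col18a1, whose C-terminal fragment is endostatin, followed Col4a1 at 77.7 ± 9.91. The laminin beta and gamma chains Lamb1 and Lamc1 were at 39.0 ± 8.58 and 29.98 ± 7.23, above every alpha chain (Lama5 at 10.95 ± 1.86 and Lama1 at 10.1 ± 5.28). The fibrillar chains Col1a2, Col2a1 and Col1a1 were at 25.2 ± 6.90, 22.9 ± 5.53 and 17.4 ± 7.46. The upper 12 members made 82.4% of the members' CPM, and 29 of the 55 were below 1 CPM. Col4a3, Col6a5, Col6a6, Col10a1 and Col28a1 had at most 95 UMIs over the 18 libraries and were not tested.

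Cells were grouped into classes by clustering without the members and naming clusters from marker genes, so a name ends in "-like" and may differ from the study's annotation. Over the 18 classes with at least 3 WT libraries, 11 members had their highest WT mean in ExE mesoderm-like cells (ExE, extraembryonic), 10 in notochord-like, 6 each in pharyngeal mesoderm-like and cardiomyocyte-like and 5 each in endothelium-like and surface ectoderm-like cells. Col1a1, Col1a2 and Col3a1, the fibrillar chains of soft connective tissue and bone, peaked in ExE mesoderm-like cells at 236 ± 127, 265 ± 100 and 161 ± 104 CPM (SD, n = 7), and in allantois-like cells the 2 type I chains reached 103 ± 25.5 and 103 ± 21.0. Col2a1, the main cartilage collagen, was highest in cardiomyocyte-like cells (344 ± 56.8, n = 7), ahead of notochord-like cells (233 ± 192, n = 4), whose libraries ran from 66.1 to 503 and overlapped the 297 to 458 of the cardiomyocyte-like class. Cardiomyocyte-like cells also held the highest mean of Col5a1, which regulates fibril diameter (73.9 ± 20.4), of Col12a1, a FACIT collagen (24.8 ± 7.39), and of the transmembrane collagen Col13a1 (27.6 ± 10.4).

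Type IV chains had other places. Col4a1 was at 311 ± 77.2 CPM in gut endoderm-like and 300 ± 36.5 in endothelium-like cells, which overlapped, and at 221 ± 32.3 in ExE endoderm-like cells. Erythroid-like cells held the least, at 3.74. Col4a5 and Col4a6, the X-linked type IV pair, were highest in ExE mesoderm-like (35.8 ± 3.70) and surface ectoderm-like cells (16.6 ± 5.93). Col26a1 was highest in pharyngeal mesoderm-like (80.4 ± 15.9) and somitic mesoderm-like cells (48.2 ± 16.9). Among laminins, Lamb1 (96.3 ± 6.99) and Lamc1 (87.7 ± 9.28) peaked in ExE mesoderm-like cells, Lama5 in surface ectoderm-like (33.3 ± 5.48) and Lama1 in pharyngeal mesoderm-like cells (25.3 ± 1.80). Parietal endoderm-like cells, 8 in WT 5 and 2 in WT 7, were too few to be among the 18 classes and stood far higher. There Lama1 was at 2532 and 1082 CPM, Lamb1 at 2330 and 1481, Lamc1 at 2343 and 1661 and Col4a1 at 9795 and 6721.

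**Figure D1:**
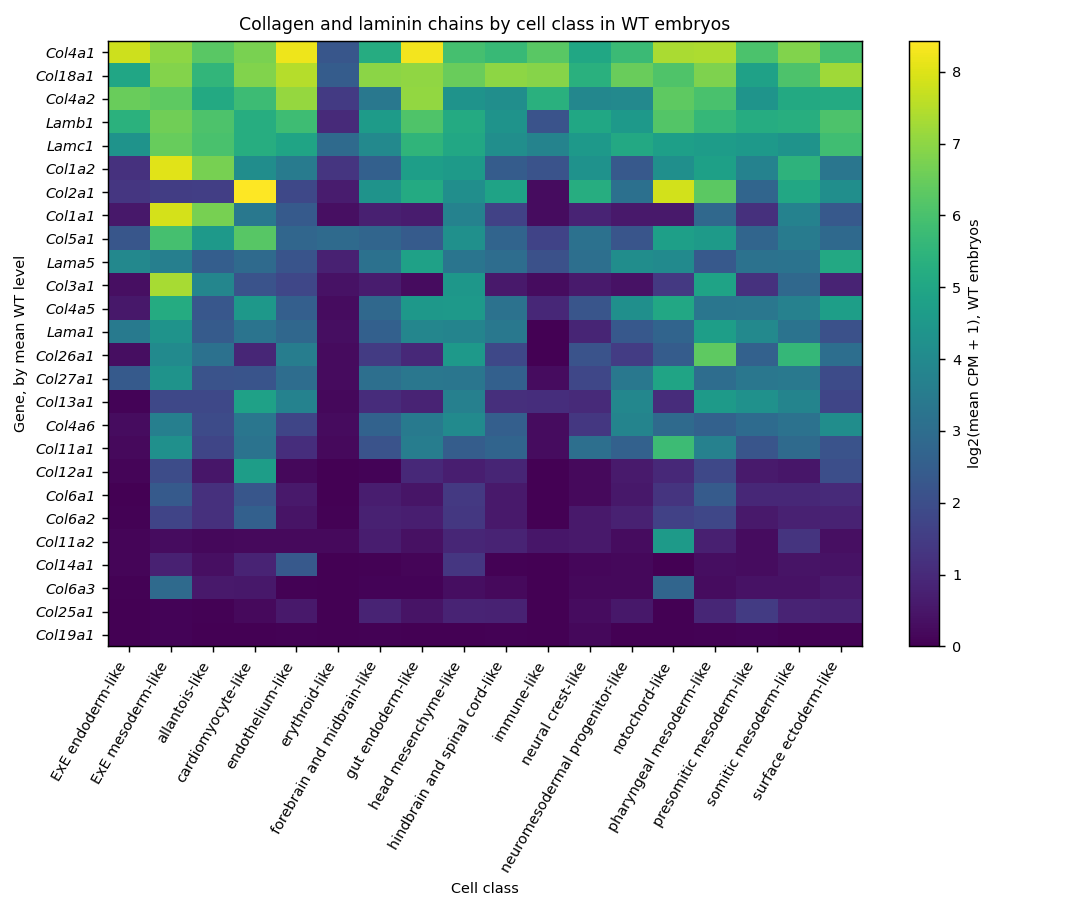
Mean CPM of the 26 named members (rows) in 18 cell classes (columns) over WT embryos, coloured as log2(mean CPM + 1). Col4a1 and Col18a1 were high in most classes, with erythroid-like cells low, while Col1a1, Col1a2 and Col3a1 were brightest in ExE mesoderm-like cells and Col2a1 in cardiomyocyte-like cells.

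Chains that share a trimer had like class patterns. Over the 18 WT classes, whose values come from the same 7 embryos and share library depth, Pearson's r between mean CPM was 0.97 for Col4a1 and Col4a2, 0.95 for Col4a5 and Col4a6, 0.93 for Col6a1 and Col6a2, 0.85 for Col1a1 and Col1a2 and 0.81 for Lamb1 and Lamc1. It was lower between Lamc1 and the alpha chains Lama1 (0.48) and Lama5 (0.58).

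The type IV chains Col4a1 and Col4a2, and Col4a5 and Col4a6, lie head to head as pairs, and the promoters of these 4 are shown because their chains moved together in the classes described further on. These are RefSeq windows of 300 bases (250 before and 50 after the start, GRCm38.p6), written 5′ to 3′ on the gene's strand with each CG, the methylation target, in capitals. Col4a1 (chr8:11312777-11313076, minus strand) and Col4a2 (chr8:11312555-11312854, plus strand) start 21 bases apart, and their windows share 78 bases.
Col4a1: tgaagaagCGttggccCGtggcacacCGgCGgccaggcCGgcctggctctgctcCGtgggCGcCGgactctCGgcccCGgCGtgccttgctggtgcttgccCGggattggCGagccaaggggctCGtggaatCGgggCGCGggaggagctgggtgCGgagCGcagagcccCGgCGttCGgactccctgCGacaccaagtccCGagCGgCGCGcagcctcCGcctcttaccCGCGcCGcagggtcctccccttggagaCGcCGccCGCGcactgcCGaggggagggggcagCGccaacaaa
Col4a2: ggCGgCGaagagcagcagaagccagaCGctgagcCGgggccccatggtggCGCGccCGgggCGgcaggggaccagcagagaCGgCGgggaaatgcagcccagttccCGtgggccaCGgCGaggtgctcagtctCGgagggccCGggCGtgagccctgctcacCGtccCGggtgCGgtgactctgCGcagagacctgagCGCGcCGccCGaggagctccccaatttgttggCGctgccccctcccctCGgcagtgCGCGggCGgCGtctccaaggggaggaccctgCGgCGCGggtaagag
Col4a5 (chrX:141475169-141475468, plus strand) and Col4a6 (chrX:141474027-141474326, minus strand) start 1343 bases apart.
Col4a5: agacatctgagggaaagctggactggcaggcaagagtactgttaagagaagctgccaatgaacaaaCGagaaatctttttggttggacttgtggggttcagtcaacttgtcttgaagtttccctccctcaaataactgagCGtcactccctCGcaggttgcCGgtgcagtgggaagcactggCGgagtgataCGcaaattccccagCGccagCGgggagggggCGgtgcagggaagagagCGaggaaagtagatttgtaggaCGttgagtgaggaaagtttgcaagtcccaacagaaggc
Col4a6: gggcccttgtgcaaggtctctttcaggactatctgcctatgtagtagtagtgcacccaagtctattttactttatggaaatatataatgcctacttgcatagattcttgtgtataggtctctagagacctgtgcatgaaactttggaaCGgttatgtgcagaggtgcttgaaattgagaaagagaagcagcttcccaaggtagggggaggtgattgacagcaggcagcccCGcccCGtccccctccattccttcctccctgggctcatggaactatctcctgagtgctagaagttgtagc
The windows hold 37 CG in Col4a1 and 33 in Col4a2, against 11 in Col4a5 and 3 in Col4a6. Of the 55 members 40 had a window in the table (44 windows), with a median of 10.5 CG against 7 over all 32851 windows. At least 15 CG stood in 36.4% of the members' windows and in 34.6% of all, at least 1 CG in 93.2% and 94.6%, and TATAAA, searched on both strands, in 11.4% and 13.6%. Of the genes that changed most below, Col3a1 (chr1:45311288-45311587, plus strand) has a window with 0 CG, and Col19a1 (chr1:24587388-24587687, minus strand) one with 16; they are shown as a window without the methylation target and as the window of a gene that rose.
Col3a1: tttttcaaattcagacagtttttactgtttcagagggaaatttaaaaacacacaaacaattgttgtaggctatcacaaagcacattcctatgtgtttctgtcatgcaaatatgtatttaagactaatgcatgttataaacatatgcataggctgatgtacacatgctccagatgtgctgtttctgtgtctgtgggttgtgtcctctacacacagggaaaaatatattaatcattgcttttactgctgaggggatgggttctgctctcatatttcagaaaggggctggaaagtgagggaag
Col19a1: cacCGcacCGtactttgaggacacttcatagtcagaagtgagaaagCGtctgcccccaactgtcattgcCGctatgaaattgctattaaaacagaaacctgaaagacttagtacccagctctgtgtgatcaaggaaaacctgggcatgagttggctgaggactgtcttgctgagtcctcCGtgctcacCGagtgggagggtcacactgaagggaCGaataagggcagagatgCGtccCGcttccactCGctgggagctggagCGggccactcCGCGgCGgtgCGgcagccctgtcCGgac

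The comparison of Dnmt1 KO with WT over the whole embryo asked which chains differed in level in embryos without Dnmt1. The paper describes a minor developmental delay of Dnmt1-null embryos, and its part in these values was not tested. A gene was called with an adjusted p below 0.01 and at least a 2-fold difference in edgeR's quasi-likelihood test with Benjamini-Hochberg adjustment over 18870 genes. Of 50 members tested, 13 were called lower (6.09% of all genes tested were) and 2 higher (8.19% of all genes). All 15 were collagens, and 0 of the 11 laminin chains was called (2 at an unadjusted p under 0.05, as were 8681 of the 18870 genes). By DESeq2, 13 members were called lower and 3 higher, again without a laminin. Leaving out each library in turn gave 5 to 15 edgeR calls lower and 2 to 3 higher, with the fewest in all, 7, without Dnmt1 KO 2. The median log2 fold change was -0.77 over the 39 collagens tested, 0.15 over the 11 laminins and 0.01 over all genes. In sums over whole embryos, fewer cells of a type and less RNA per cell cannot be told apart. Where groups are said not to overlap, here or by class, the share of all genes for which this held was not counted.

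Of the 11 fibrillar collagens 6 were called lower (median log2 fold change -1.02). Col2a1 ranged from 18.5 to 33.3 CPM in the 7 WT libraries, with a median of 20.9, and was at 4.14, 1.93 and 5.91 CPM in Dnmt1 KO 1, 2 and 3. No Dnmt1 KO library reached the lowest WT library, and Col2a1 had the largest fall of a called member (log2 fold change -2.42 ± 0.28 SE, adjusted p = 5.2e-06, edgeR's quasi-likelihood test). Col11a1, a minor chain of cartilage fibrils, ranged from 2.84 to 5.88 CPM in WT (median 4.99) and was at 1.83, 1.08 and 1.68 in Dnmt1 KO, again without overlap (-1.497 ± 0.27, edgeR adjusted p = 0.0004). Its partner Col11a2 (-1.04 ± 0.25) and Col27a1 (-1.02 ± 0.19), another cartilage fibril chain, fell too, and lost their calls in 7 and 6 of 28 alternatives. Single libraries that took the call were Dnmt1 KO 1 or 2 and WT 1 or 2 for Col11a2 (-0.99 to -0.87 without them) and Dnmt1 KO 2 and WT 6 for Col27a1 (-0.99 to -0.85).

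The type I chains fell with overlap. Col1a1 ranged from 9.07 to 28.8 CPM in WT (median 15.5) and was at 9.73, 3.94 and 4.74 in Dnmt1 KO, so that Dnmt1 KO 1 lay inside the WT range (-1.46 ± 0.40, edgeR adjusted p = 0.0092). Its call was lost in 11 of 28 alternatives, with sex or reference as a covariate, after thinning, and without Dnmt1 KO 2 or 3, Dnmt3a KO 1 or 14, or WT 1, 2, 4 or 5 (log2 fold change -1.51 to -1.23 and edgeR adjusted p 0.0102 to 0.0626 without 1 of these 8). Col1a2 ranged from 15.6 to 34.9 CPM in WT (median 22.7) and was at 16.4, 8.195 and 11.2 (-1.02 ± 0.25, edgeR adjusted p = 0.0046), a call lost in 6 of 28 alternatives, among them without Dnmt1 KO 2 or 3 or WT 1 or 2 (-1.01 to -0.81, edgeR adjusted p up to 0.0411). Col3a1 had a wider WT spread, from 3.42 to 25.2 CPM, and with 5.16, 2.52 and 3.41 in Dnmt1 KO it was not called (-1.51 ± 0.53, edgeR adjusted p = 0.031). Col5a1 (-0.62 ± 0.18) and Col5a2 (0.01 ± 0.22) were not called either.

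Of the 4 type VI chains tested, 3 were called lower. The remaining chain, Col6a4, had the opposite sign (log2 fold change 2.48) and was not called. It had only 13 UMIs in the WT cells that were grouped into classes. All 4 chains were at an unadjusted p under 0.05 in edgeR's quasi-likelihood test, as were 8681 of all 18870 genes tested. Col6a1 ranged from 0.805 to 1.06 CPM in WT (median 0.849) and was at 0.279, 0.151 and 0.226 in Dnmt1 KO (-1.97 ± 0.24, edgeR adjusted p = 6.7e-06). Col6a2 fell by 1.12 ± 0.24 on the log2 scale and Col6a3 by 1.31 ± 0.37. The call of Col6a2 was lost in 6 of 28 alternatives, among them with sex as a covariate and without Dnmt1 KO 1 or 2 (-1.10 to -0.85 without either). That of Col6a3 was lost in 15, with sex or reference as a covariate, after thinning, and without any of 12 single libraries. These were Dnmt1 KO 2 or 3, Dnmt3a KO 1 or 2, those labelled Dnmt3b KO 2, 11 or 12, and WT 1, 2, 3, 5 or 6 (-1.37 to -1.03, edgeR adjusted p 0.0101 to 0.0738). The groups were apart for Col6a1, while its ratio to Col6a2 was 1.19 ± 0.106 (SD, n = 7) in WT and 0.690 ± 0.180 (n = 3) in Dnmt1 KO (exact two-sided permutation test, p = 0.0167, the smallest p these groups allow, adjusted p = 0.125 over 15 ratio tests chosen after the values were seen). The ratio of Col4a5 to Col4a6 was 1.74 ± 0.140 and 2.19 ± 0.042 with the same exact p and adjusted p, and none of the 15 ratio tests, on 5 chain pairs in the 3 KO groups, passed an adjusted p of 0.05.

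Among the remaining collagens, Col26a1 ranged from 6.94 to 12.2 CPM in WT (median 9.63) and was at 3.04, 1.57 and 3.28 in Dnmt1 KO, with the groups apart (-1.77 ± 0.26, edgeR adjusted p = 5.2e-05). The transmembrane collagens Col13a1 (-1.16 ± 0.26) and Col25a1 (-2.005 ± 0.41) fell, as did the FACIT Col12a1 (-1.64 ± 0.27), which was at 0.962 to 1.66 CPM in WT and 0.502, 0.238 and 0.362 in Dnmt1 KO. The calls of Col13a1 and Col25a1 were lost in 5 and 3 of 28 alternatives, for both genes with sex as a covariate. They were also lost without Dnmt1 KO 1 or 2 for Col13a1 (-1.14 to -0.82) and without Dnmt1 KO 2 for Col25a1 (-1.83). Both members that edgeR called higher were FACIT collagens. DESeq2 also called a transmembrane collagen higher, Col17a1 (1.31, DESeq2 adjusted p = 0.0077). Col14a1, which binds the fibril surface, was at 0.366 to 0.541 CPM in WT and at 0.976, 0.714 and 1.69 in Dnmt1 KO (1.37 ± 0.32, edgeR adjusted p = 0.0032). That call was lost in 5 of 28 alternatives, among them without Dnmt1 KO 3 (0.93, edgeR adjusted p = 0.0409) and without the extraembryonic classes (0.05, edgeR adjusted p = 0.92). Col19a1 was near absence in WT (0 to 0.0398 CPM) and at 0.297, 0.0721 and 0.102 in Dnmt1 KO (2.82 ± 0.50, edgeR adjusted p = 0.00034). Its call was lost in 2 of 27 alternatives, with the replicate block and without Dnmt1 KO 1 (2.01 without it, edgeR adjusted p = 0.014). After thinning to the smallest library Col19a1 was too low to be tested, so no call stood there either. For both genes every Dnmt1 KO library lay above every WT library, and with sex as a covariate the values were 2.08 for Col14a1 and 3.43 for Col19a1. Since 1 of 7 WT and 3 of 3 Dnmt1 KO libraries were male, this covariate can hardly separate sex from genotype.

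None of the 5 type IV chains tested was called (3 at an unadjusted p under 0.05 in edgeR, as were 8681 of all 18870 genes, and 0 called by DESeq2). Col4a1 ranged from 78.4 to 158 CPM in WT (median 116) and was at 170, 134 and 102 in Dnmt1 KO (0.32 ± 0.18). Col4a2 was at 37.7 to 67.4 and at 73.9, 60.9 and 46.6 (0.43 ± 0.17), and only Dnmt1 KO 1 passed the WT range for each. Without the extraembryonic classes the signs turned, to -0.48 for Col4a1 and -0.47 for Col4a2, neither called. Col4a5 was at 9.15 to 12.8 CPM in WT and 7.58, 3.85 and 7.71 in Dnmt1 KO (-0.63 ± 0.18, edgeR adjusted p = 0.0107), and Col4a6 at 4.95 to 8.29 and 3.42, 1.80 and 3.48 (-0.97 ± 0.20, edgeR adjusted p = 0.0012). For this X-linked pair the groups did not overlap but the differences were below 2-fold, and without the extraembryonic classes Col4a6, at -1.02 ± 0.19, was just past that limit and was called. Lamb1, at 30.4 to 55.6 CPM in WT, was at 45.2, 38.0 and 38.4 in Dnmt1 KO (0.15 ± 0.16), and Lamc1, at 23.5 to 44.9, was at 35.1, 30.7 and 32.3 (0.22 ± 0.15), all within the WT range. Lama1 was at 6.92 to 21.9 (median 8.07) in WT and 10.8, 12.3 and 13.4 in Dnmt1 KO (0.39 ± 0.26). Its highest WT library, WT 5, drew 49.7% of its Lama1 UMIs from 8 parietal endoderm-like cells, cells that secrete a thick basement membrane, and Dnmt1 KO 2 and 3 drew 30.8% and 38.2% from 10 and 8 such cells.

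**Figure D2:**
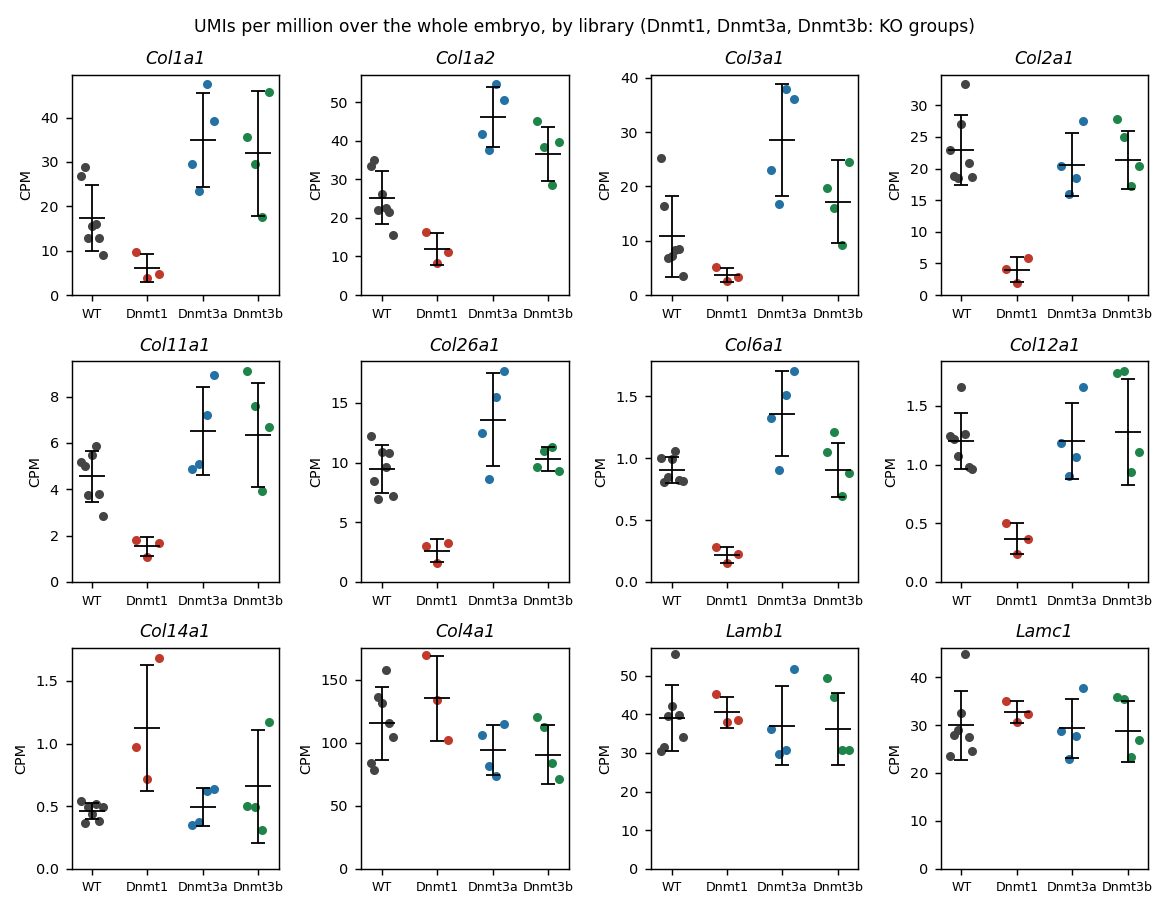
CPM over the whole embryo in each library (points) with the group mean and SD (bars), for 12 members in the WT embryos and the 3 KO groups. Dnmt1 KO points lay below all WT points for Col2a1, Col11a1, Col26a1, Col6a1 and Col12a1, above them for Col14a1, and among them for Lamb1 and Lamc1; the SD of Dnmt3b KO counts its libraries 1 and 2 as 1 sample.

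**Figure D3:**
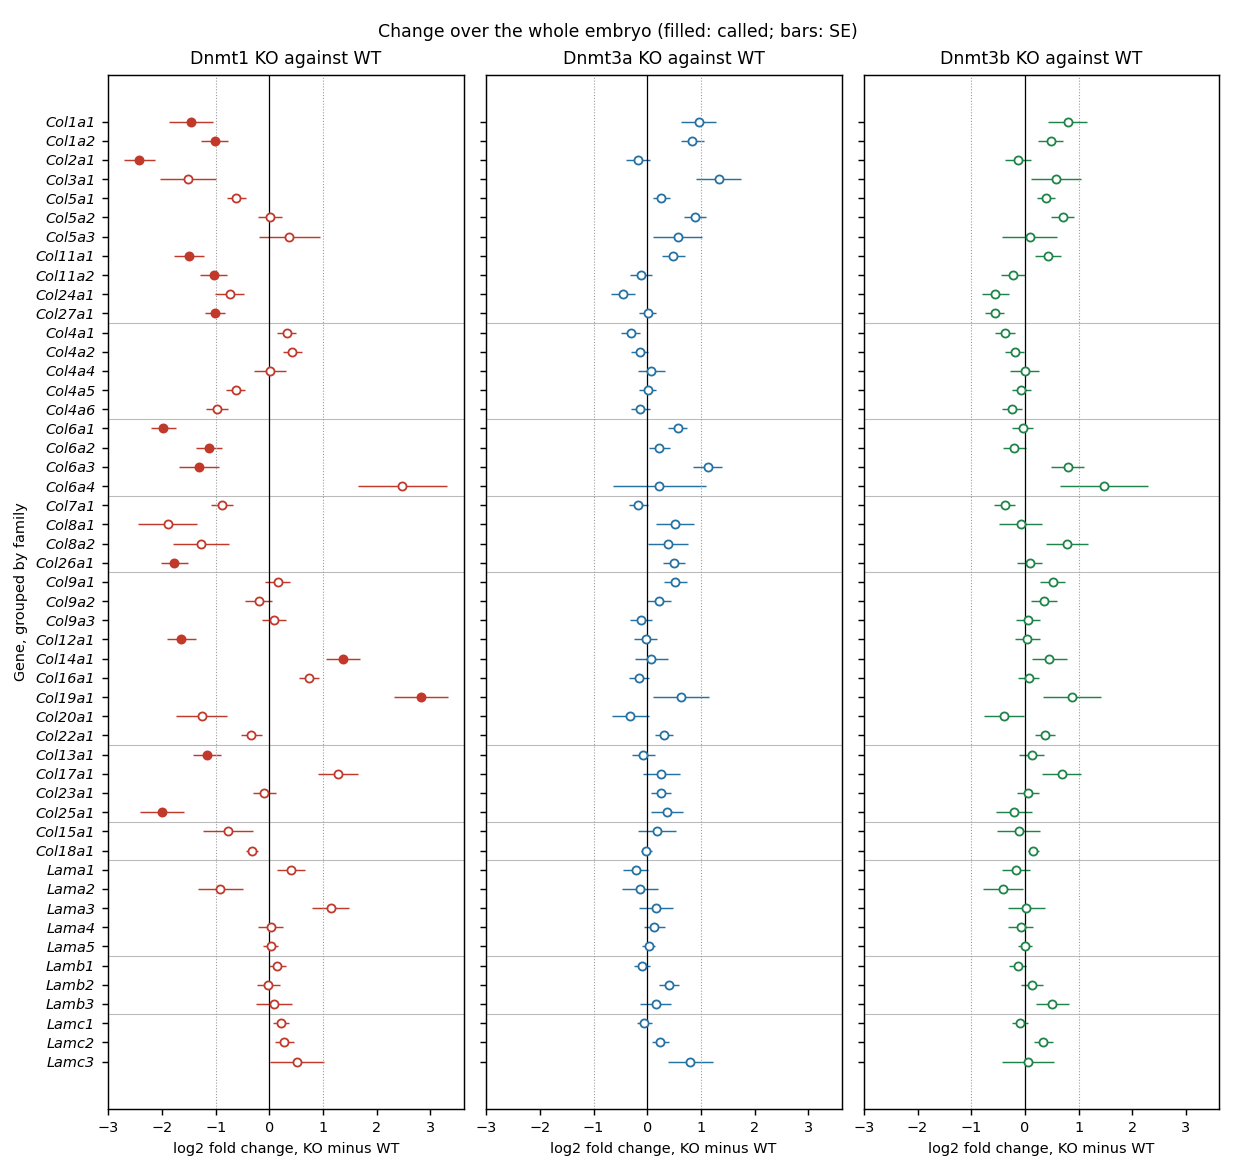
Log2 fold change of each of the 50 tested members over the whole embryo (points, horizontal bars ± SE, KO minus WT) by family, with called members filled and dotted lines at 2-fold. Filled points stand only in the Dnmt1 KO panel, 13 to the left and 2 to the right of 0, and none is a laminin or type IV chain.

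Of 66 genes tested that make, bind or break down these proteins, 2 were called lower and 1 higher in Dnmt1 KO (6.09% and 8.19% of all genes). Of 31 collagen modifying and processing genes 1 was called lower in Dnmt1 KO, Loxl3 (a lysyl oxidase, -1.26 ± 0.23). Among 14 other basement membrane genes 0 were called by edgeR (4 at an unadjusted p under 0.05, as were 8681 of all 18870 genes). Of 13 receptors tested Itga7, a laminin receptor subunit, was called higher, at 0.316 to 1.49 CPM against 0.0675 to 0.220 in WT. Of 8 matrix breakdown genes tested Timp2, a protease inhibitor, was called lower, at 10.7 ± 2.31 (n = 3) against 25.3 ± 2.10 CPM (n = 7). By edgeR, 1775 of all 18870 genes were at an unadjusted p under 0.05 in Dnmt3a KO and 3381 in the libraries labelled Dnmt3b KO. In Dnmt3a KO and in the libraries labelled Dnmt3b KO, edgeR and DESeq2 each called 0 of the 66 (0.207% and 1.86% of all genes by edgeR; 12 and 13 of the 66 at an unadjusted p under 0.05 by either tool).

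Cell class makeup differed between these groups, and its part in the whole-embryo values was not tested. Of the named classes, 13 had fewer than 25 cells in each Dnmt1 KO library. They held 40.9% of WT cells and 71 of 7068 Dnmt1 KO cells, and 50.5% of all WT UMIs. Other classes took a larger share of cells in Dnmt1 KO than in WT, ExE mesoderm-like cells 18.4% to 31.4% by library against 3.39% to 5.30%, ExE ectoderm-like cells 4.51% to 31.1% (the most in Dnmt1 KO 2) against 0% to 1.72%, epiblast-like cells 9.14% to 16.9% against 0% to 0.200%, and immune-like cells 5.10% to 9.08% against 0.220% to 0.657%. The members' WT UMIs were spread unevenly over the 13 classes with fewer than 25 cells in each Dnmt1 KO library. Col2a1 had 87.2% of its WT UMIs in these 13, Col25a1 85.6%, Col26a1 80.2%, Col12a1 80.2% and Col6a1 68.9%, against 34.3% for Col4a1, 50.6% for Lamb1 and 30.3% for Col1a1. Across the 50 members tested, whose UMIs come from the same libraries, this share and the Dnmt1 KO log2 fold change had a Pearson's r of -0.08 and a Spearman's rho of -0.15. ExE mesoderm-like cells alone held 62.5% of the Col1a1, 67.4% of the Col3a1 and 64.7% of the Col6a3 UMIs of WT. The extraembryonic classes were taken as the ExE endoderm-, ExE mesoderm-, ExE ectoderm-, parietal endoderm-, allantois-, erythroid- and immune-like ones. Without them the cells compared still differed in kind. Epiblast-like and unnamed cells stayed in, at 818 and 962 cells in Dnmt1 KO against 9 and 4807 in WT, and their part was not tested. With the extraembryonic classes left out, 21 of 49 members tested were called lower (6.55% of all genes were) and 3 higher (8.47% of all genes). The fold by which several members fell was more than 1.5 times as large then, with log2 fold changes of -4.73 for Col6a1, -3.41 for Col26a1, -2.86 for Col12a1, -2.61 for Col6a3, -2.45 for Col1a1, -2.26 for Col1a2, -2.01 for Col13a1 and -1.88 for Col6a2. That of Col2a1 was smaller, at -1.48. Col3a1 (-3.30), Col5a1 (-1.61) and Col5a2 (-1.63), which were not called over the whole embryo, were called lower, and Lama1 turned sign, at -0.90, below the 2-fold limit. Col17a1, which DESeq2 alone called higher over the whole embryo, was called lower with the largest fall (-6.33 ± 1.67, edgeR adjusted p = 0.0072). Its mean was at most 0.666 CPM in any of the 18 WT classes. A laminin was among those lower, Lama4, an alpha chain of vessel walls (-2.35 ± 0.31, edgeR adjusted p = 1.0e-05), which was at 0.02 over the whole embryo and not called there. Over the 18 WT classes Lama4 was highest in ExE mesoderm-like (32.6 ± 6.35 CPM), cardiomyocyte-like (28.4 ± 9.66) and endothelium-like cells (28.0 ± 6.52). Endothelium-like cells were 1.84%, 0.589% and 6% of the cells of Dnmt1 KO 1, 2 and 3, against 3.83% to 9.61% in WT, so that Dnmt1 KO 3 lay inside the WT range. Cardiomyocyte-like cells numbered 1 in Dnmt1 KO and 781 in WT.

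Within classes, Dnmt1 KO could be compared with WT in 4 that had at least 25 cells in 3 libraries of each group. The Dnmt1 KO cells of 2 of them stood apart from WT cells of the same name. Nearly all cells of the cluster behind the Dnmt1 KO ExE mesoderm-like class (98.9% of its clustered cells) and of that behind the ExE endoderm-like class (99.4%) were from Dnmt1 KO, while other clusters held the WT cells. The 9 ExE mesoderm markers summed to 844 to 1526 CPM in the Dnmt1 KO class against 2996 to 4323 in WT, with none at 0. The 8 pharyngeal mesoderm markers summed to 121 to 193 against 37.2 to 62.1, and the 8 surface ectoderm markers to 28.4 to 50.7 against 140 to 286. Their part in the values that follow was not tested.

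In ExE mesoderm-like cells 16 of 35 members tested were called lower in Dnmt1 KO (7.37% of genes tested there were) and 3 higher (9.64%), with a median log2 fold change of -1.04. Col1a1 ranged from 132 to 469 CPM of the class in WT (median 199) and was at 36.6, 25.2 and 10.3 in Dnmt1 KO (-3.29 ± 0.50, edgeR adjusted p = 2.7e-05). Col3a1 ranged from 48.7 to 357 (median 126) and was at 19.5, 15.9 and 7.29 (-3.50 ± 0.53, edgeR adjusted p = 2.3e-05). Col1a2 ranged from 165 to 457 and was at 59.0, 47.1 and 22.8 (-2.62 ± 0.33, edgeR adjusted p = 3.5e-06). For these 3 chains the groups were far apart, and Dnmt1 KO 3 was lowest each time. The fibrillar Col5a1 (-1.74 ± 0.22), Col5a2 (-1.90 ± 0.25), Col11a1 (-2.24 ± 0.34) and Col27a1 (-1.87 ± 0.24) fell in the same cells, as did all 3 type VI chains tested there (Col6a1 -2.47, Col6a2 -1.49, Col6a3 -3.36; the call of Col6a2 was lost without Dnmt1 KO 2, at -1.34).

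Of the type IV chains, Col4a1 and Col4a2 took opposite signs in the 2 extraembryonic classes. In ExE mesoderm-like cells Col4a1 ranged from 107 to 149 CPM in WT and was at 65.4, 65.8 and 52.6 in Dnmt1 KO (-1.04 ± 0.16, edgeR adjusted p = 2.1e-05; -0.96 or -0.99, below the 2-fold limit, without Dnmt1 KO 3 or WT 3), and Col4a2 from 69.2 to 87.6 and at 33.5, 35.6 and 23.7 (-1.34 ± 0.15, edgeR adjusted p = 1.1e-06). In ExE endoderm-like cells, where the yolk sac's absorptive layer belongs, Col4a1 ranged from 174 to 247 in WT and was at 336, 319 and 349 in Dnmt1 KO (0.61 ± 0.13, edgeR adjusted p = 0.0019). Col4a2 ranged from 76.7 to 106 and was at 141, 139 and 172 (0.74 ± 0.10, edgeR adjusted p = 2.5e-05). No library overlapped in either class, yet the ExE endoderm-like differences were below 2-fold and so were not called. The difference between the classes was not tested. Col4a5 had a negative value in both without being called, at 31.3 to 40.3 CPM in WT and 22.1, 18.6 and 13.5 in Dnmt1 KO in ExE mesoderm-like cells (-0.97 ± 0.16, edgeR adjusted p = 4.8e-05) and on 71 WT and 14 Dnmt1 KO UMIs in ExE endoderm-like cells (-1.49 ± 0.65, edgeR adjusted p = 0.094), where Dnmt1 KO 1, at 0.194 CPM, lay inside the WT range of 0.158 to 0.973.

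Lamb1, Lamc1 and Lama1 were lower in Dnmt1 KO ExE mesoderm-like cells without passing the 2-fold limit. In these cells Lamb1 was at 87.4 to 106 CPM in WT and 66.2, 66.7 and 41.6 in Dnmt1 KO (-0.70 ± 0.14, edgeR adjusted p = 0.00042). Lamc1 was at 79.2 to 104 and 67.5, 54.8 and 33.7 (-0.72 ± 0.15, edgeR adjusted p = 0.00074). Lama1 was at 15.4 to 26.3 and 13.01, 9.29 and 9.41 (-0.80 ± 0.16, edgeR adjusted p = 0.00036). The groups did not overlap for any of these 3, but none reached 2-fold. How many of all genes in the class were without overlap was not counted. The only laminin called in this class was Lamb2, the beta chain of mature basement membranes (-1.79 ± 0.24). In ExE endoderm-like cells 1 of 24 members tested was called (5.57% of genes tested there were, in either direction). It was Lama1, the alpha chain of the first embryonic basement membranes, at 8.28 to 11.4 CPM in WT (median 10.1) and 17.1, 21.2 and 27.1 in Dnmt1 KO, so the groups did not overlap (1.15 ± 0.13, edgeR adjusted p = 4.2e-06; 0.98, below the 2-fold limit, without Dnmt1 KO 3). Col19a1 had 0 UMIs of 182410252 in the WT ExE endoderm-like cells and 24 in the Dnmt1 KO ones, at least 16.4-fold higher against a floor of 3 counts over the group, and was too low to be tested. Dnmt1 KO 1, 2 and 3 held 16, 7 and 1 of these UMIs, and without Dnmt1 KO 1 the bound was at least 10.2-fold.

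The 3 members higher in Dnmt1 KO ExE mesoderm-like cells were Col2a1, Col13a1 and Col14a1. Col2a1 ranged from 1.04 to 2.65 CPM in WT and was at 5.28, 3.83 and 6.55 in Dnmt1 KO (1.42 ± 0.25, edgeR adjusted p = 9.9e-05), and Col13a1 from 1.35 to 4.48 and at 6.76, 5.27 and 7.13 (1.45 ± 0.34; 1.33, edgeR adjusted p = 0.0105 and so not called, without Dnmt1 KO 3). Both were called lower over the whole embryo. Col14a1 ranged from 0.239 to 1.28 and was at 2.55, 3.88 and 3.36 (2.28 ± 0.52), the same sign as over the whole embryo. The groups did not overlap for any of the 3, and the share of all genes in the class for which this held was not counted.

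In gut endoderm-like cells 3 of 31 members tested were called lower (3.19% of genes tested there were) and 2 higher (4.42%). Dnmt1 KO 1, 2 and 3 had only 30, 42 and 37 of these cells, against 79 to 547 per WT library. Col4a5 ranged from 18.4 to 25.2 CPM in WT and was at 6.73, 5.95 and 7.61 in Dnmt1 KO (-1.57 ± 0.19, edgeR adjusted p = 5.8e-06), and Col4a6 from 8.36 to 13.2 and at 2.40, 0 and 2.17 (-2.51 ± 0.43, edgeR adjusted p = 0.00025). Col11a1 ranged from 7.20 to 16.1 and was at 0.961, 2.38 and 0.543 (-3.01 ± 0.54). The Dnmt1 KO values of Col4a5, Col4a6 and Col11a1 rest on 38, 9 and 7 UMIs, and those of Col16a1 and Col9a3 below on 80 and 67. Col4a1 (0.22 ± 0.19) and Col4a2 (0.20 ± 0.17) of the same cells were not called. The FACIT chains Col16a1 and Col9a3 rose, Col16a1 from 0.823 to 3.38 CPM in WT to 21.6, 8.34 and 11.4 in Dnmt1 KO (3.18 ± 0.43), and Col9a3 from 5.21 to 9.80 to 7.21, 14.3 and 15.2 (1.00 ± 0.25), where Dnmt1 KO 1 lay inside the WT range. The call of Col9a3 held in 14 of 24 alternatives and was lost, among others, without Dnmt1 KO 2 or 3, WT 1, 2, 3 or 6 or the library labelled Dnmt3b KO 11 (0.77 to 0.996). In immune-like cells 0 of 6 members tested were called in edgeR's quasi-likelihood test (6.82% of genes tested there were). Of these members 3 were at an unadjusted p under 0.05, and how many of all genes there passed it was not counted.

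**Figure D4:**
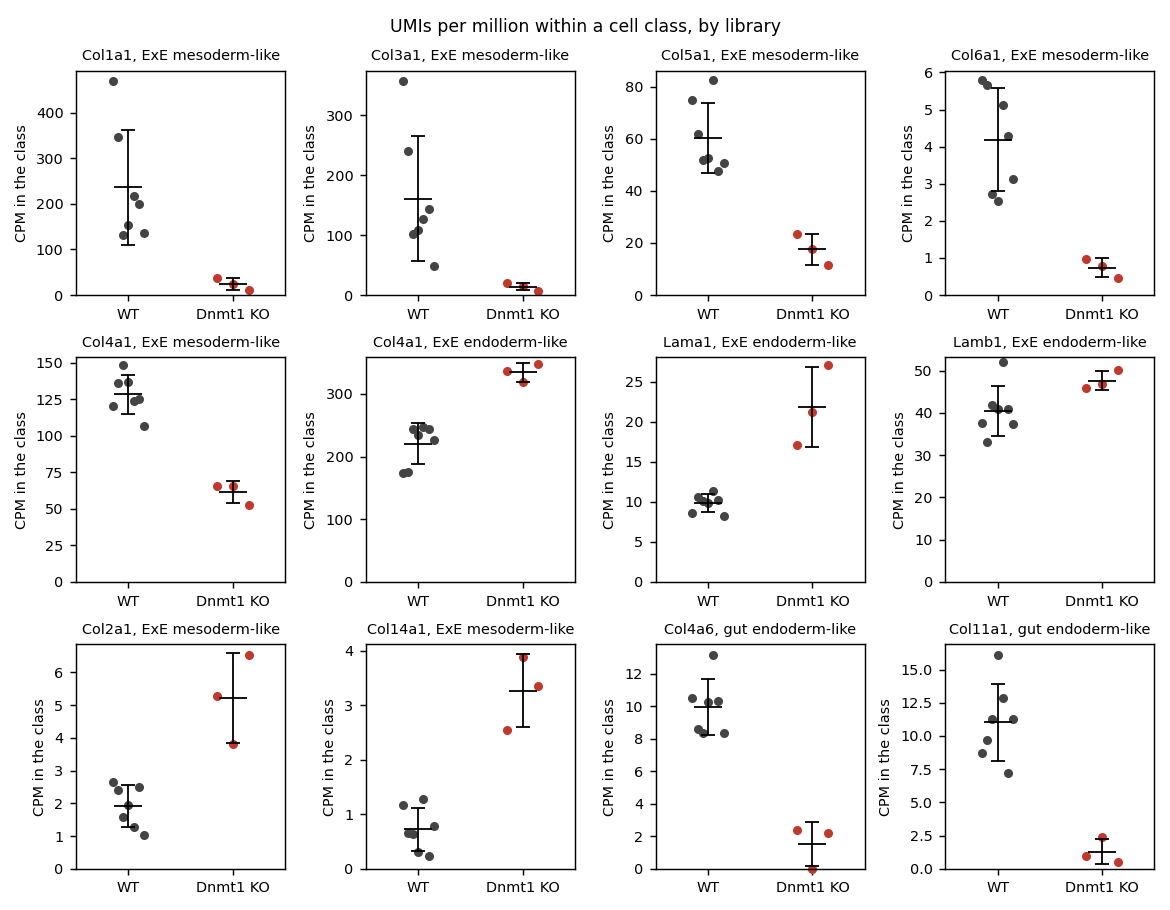
CPM within a cell class by library (points) with group mean and SD (bars), WT against Dnmt1 KO, for 12 pairs of gene and class. In ExE mesoderm-like cells the Dnmt1 KO points lay below all WT points for Col1a1, Col3a1, Col5a1, Col6a1 and Col4a1 and above them for Col2a1 and Col14a1, while Col4a1 and Lama1 lay above all WT points in ExE endoderm-like cells.

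All KO groups were compared with the same 7 WT libraries. By edgeR's quasi-likelihood test, 1775 of all 18870 genes were at an unadjusted p under 0.05 in Dnmt3a KO and 3381 in the libraries labelled Dnmt3b KO. In Dnmt3a KO edgeR's quasi-likelihood test called 0 of the 50 members in whole-embryo sums (0.207% of all genes were; 10 members at an unadjusted p under 0.05; 0 by DESeq2), and in the libraries labelled Dnmt3b KO 0 (1.86% of all genes; 7 members; 0 by DESeq2). In Dnmt3a KO Col5a2 was at 17.8, 18.4, 23.1 and 19.3 CPM against 7.30 to 13.6 in WT, without overlap (0.89 ± 0.20, edgeR adjusted p = 0.051). Col1a2 was at 41.8, 37.6, 54.8 and 50.5 against 15.6 to 34.9, also without overlap (0.84 ± 0.21, edgeR adjusted p = 0.101). Col3a1, at 23.0, 16.7, 38.0 and 36.2 against 3.42 to 25.2, overlapped WT in 2 libraries (1.33 ± 0.42, edgeR adjusted p = 0.24). These 3 genes also had positive values in the libraries labelled Dnmt3b KO, each with overlap. There Col5a2 was at 13.2 to 23.1 CPM (0.70 ± 0.21, edgeR adjusted p = 0.083). Col1a2 was at 28.7 to 45.0 (0.48 ± 0.23, edgeR adjusted p = 0.29) and Col3a1 at 9.18 to 24.5 (0.57 ± 0.47, edgeR adjusted p = 0.55). The median log2 fold change of the 11 fibrillar chains was 0.49 in Dnmt3a KO and 0.40 in the libraries labelled Dnmt3b KO, and that of the 11 laminins 0.14 and 0.00.

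By class, 1 of 465 pairs of member and class was called in Dnmt3a KO over 18 classes (0.114% of all pairs of gene and class were; 102 member pairs at an unadjusted p under 0.05). It was Col3a1 in ExE endoderm-like cells, at 0.764, 3.31, 0.862 and 1.53 CPM in Dnmt3a KO 1, 2, 13 and 14 against 0.0831 to 0.584 in WT (2.60 ± 0.49, edgeR adjusted p = 0.006). These levels were 19.8% of the whole-embryo level in Dnmt3a KO 2 and 2.27% to 4.24% in the other 3 libraries, against 1.32% to 3.56% in WT. Col1a1 and Col1a2, which with Col3a1 have their highest WT level in ExE mesoderm-like cells, were above WT in the same class in Dnmt3a KO 2 alone (5.61 and 8.80 CPM), while Dnmt3a KO 1, 13 and 14 lay inside the WT ranges of 0.158 to 1.65 and 0.535 to 3.21. The part of other cells' RNA in the call was not tested. The call was lost when Dnmt3a KO 2 or 14, or WT 3, 4, 5, 6 or 7, was left out (7 of 18 libraries; adjusted p of 0.00185 to 0.0215 over all 18) and with sex as a covariate. In the libraries labelled Dnmt3b KO 0 of 431 member pairs over 16 classes were called by edgeR (0.677% of all pairs) and 2 by DESeq2. By edgeR 87 member pairs were at an unadjusted p under 0.05. How many of all pairs passed that limit was not counted in either KO group.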

How the data were processed

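The 18 libraries, each labelled as 1 E8.5 mouse embryo, were sequenced with 10x Genomics 3′ v3 chemistry. The authors deposited raw UMI counts per gene and cell barcode, made with Cell Ranger, not normalized. Per the file headers, 17 matrices came from version 3.1.0 and 1 (labelled Dnmt3b KO 12) from 5.0.0, while the study's methods name only the latter. WT 1, Dnmt3a KO 1 and 13 and the library labelled Dnmt3b KO 11 had a reference that joins the human and mouse genomes, and their human genes were left out. Members and lists were chosen with earlier results of these data known.

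Barcodes with at least 1500 mouse UMIs were kept, and counts were summed per library and, for 109961 cells also passing limits of 30% mitochondrial and 35% ribosomal counts and Scrublet doublet removal, per library and class. Classes came from Leiden clustering (scanpy 1.11.5) without the members on 2500 variable genes, named from marker lists. Unnamed cells were 13.6% to 17.3% per group. By library they were 3.07%, 3.08% and 32.3% in Dnmt1 KO 1, 2 and 3, against 9.47% to 21.8% in WT. The median UMIs per barcode were 56928, 33258 and 4823 in Dnmt1 KO 1, 2 and 3, against 4845 to 54867 in WT. The 2 libraries that shared barcodes were summed. Sums were tested with edgeR 4.0.16 in R 4.3.3 (TMM, filterByExpr, quasi-likelihood test, Benjamini-Hochberg adjustment over all genes), with 4 groups in 1 fit, and with DESeq2 1.42.0 as an alternative; the scripts were tested on simulated data. Replicates were separate embryos per the labels. Named genes were members called over the whole embryo in any KO, the 12 highest in WT, members called in the most classes (at least 2), partner chains of their trimers, and in each partner list the 2 largest called changes; further members were named after their values were seen, because they were called in a class or belong to a family described. Alternatives were a covariate for sex or reference, no filter on low counts, thinning to the smallest library, at least 50 cells per class, libraries kept separate, a replicate block, leaving out each library, and leaving out the extraembryonic classes. Bounds and floors cover counting error only.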

Additional observations from a re-analysis of the deposited data

Results flagged for a closer look

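Within groups of 4 to 10 libraries, 8 of 52 groups of a named member held a library far from the rest, where chance gives about 1 in 20. In WT 5 Lamc1 (44.9 CPM), Lama5 (14.8) and Lama1 (21.9) stood above the other WT libraries; this library drew 49.7% of its Lama1 and 22.1% of its Lamc1 UMIs from 8 parietal endoderm-like cells. In WT 4 it was Col12a1 (1.66 CPM). In Dnmt3a KO 14 Lama5 (15.96), Col27a1 (10.2) and Col13a1 (7.40) were above the other 3 Dnmt3a KO libraries, and in Dnmt3a KO 13 Col6a3 (1.58).

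Some members took opposite signs in different classes of Dnmt1 KO embryos, with every library of a class on 1 side of WT; these differences between classes were not tested. The log2 fold change of Col4a1 was 0.61 in ExE endoderm-like and -1.04 in ExE mesoderm-like cells, that of Col4a2 0.74 and -1.34, and that of Lama1 1.15 and -0.80. Col5a1 had -1.74 in ExE mesoderm-like cells, against 2.34 in immune-like cells, which rests on 3 of 7 WT libraries with 8 UMIs and was not called (edgeR adjusted p = 0.039), and -0.83 in gut endoderm-like cells, on 12 Dnmt1 KO UMIs and not called (edgeR adjusted p = 0.13).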

How the results depend on the processing

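Over the whole embryo 15 members were called in Dnmt1 KO. Thinned to the smallest library the count was 8, all lower, and without the extraembryonic classes 24 (3 higher, 21 lower). Leaving out each library gave 7 (without Dnmt1 KO 2) to 17 calls (without WT 7). DESeq2, sex, reference, filters and separate libraries gave 12 to 16. Over 28 alternatives (27 for Col19a1, which was not tested after thinning) Col2a1, Col6a1, Col11a1, Col12a1 and Col26a1 kept their call in each, and 0 of 15 called members reversed sign. Alternatives that left out or separated libraries of the other KO groups changed neither the Dnmt1 KO nor the WT counts, only what the joint fit shares. Lama1, not called, had a log2 fold change of 0.66 in place of 0.39 without WT 5. In Dnmt3a KO and the libraries labelled Dnmt3b KO the count was 0 under every alternative run; without the libraries labelled Dnmt3b KO 11 and 12 that group is 1 sample, so its 0 says nothing about stability.

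The correlation of same-numbered KO and WT libraries ran from -0.38 to 0.41. Dnmt3a KO 1 had its best match in WT 1 (0.41), while every other KO library looked at matched a WT library of another number best. Whether replicate numbers in the labels pair the samples cannot be decided from this, since the libraries compared also differ in genotype. With the replicate block, over the libraries that share a number, 10 members were called in Dnmt1 KO, against 12 on the same libraries without it, and 0 in the other groups; there the libraries labelled Dnmt3b KO 1 and 2, which share cells, entered separately. The block was not fitted by class.

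By class, Dnmt1 KO gave 25 calls, 20 to 27 when each library was left out, and 18 of the 25 held in every alternative with 0 reversed. The 1 call in Dnmt3a KO became 4 with DESeq2, 4 with no filter, 0 with sex as a covariate and 0 after thinning, and 0 (without Dnmt3a KO 2 or 14, or WT 3, 4, 5, 6 or 7) to 4 (without WT 1) when a library was left out. The 0 calls in the libraries labelled Dnmt3b KO became 2 with DESeq2, 1 with separate libraries, 3 with no filter, 3 with sex as a covariate, and 0 to 2 (without WT 1) when a library was left out. Depth limits the members below 1 CPM, 29 of 55 in WT.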
